A study of Mus musculus with 4 samples.

Results

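The myostatin, activin and follistatin axis was followed through 9 genes in tibial muscle of Nse-Bmp4 mice after injury. The genes were selected by symbol alone among the 32285 features of each count table, and all 9 were found: the ligand genes Mstn, Inhba and Inhbb, the follistatin family genes Fst, Fstl1 and Fstl3, and the receptor genes Acvr2a, Acvr2b and Acvr1b. Spatial RNA was captured on 4 fresh frozen sections, 1 from uninjured muscle (day 0) and 1 each from muscle at 1, 3 and 7 days after cardiotoxin injury. All groups were Nse-Bmp4 mice on the C57BL/6 strain at 6 to 8 weeks of age, so the uninjured section also carried the Bmp4 transgene, which the neuron-specific enolase promoter drives and which makes these mice form bone in injured muscle. The labels state that 3 muscles were mixed in a group without saying what part of them a section holds. With 1 section per day there was no spread between animals, no p-value was computed, and every interval below is a 95% interval that covers counting error alone.

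Myostatin and the activins are ligands of the transforming growth factor-β (TGF-β) superfamily. They bind a type II receptor (ActRIIA or ActRIIB, from Acvr2a and Acvr2b), which engages a type I receptor such as ALK4 (from Acvr1b), and the receptor complex phosphorylates SMAD2 and SMAD3. Myostatin comes chiefly from skeletal muscle fibres and restrains muscle mass, activin A and activin B are dimers of the subunits encoded by Inhba and Inhbb, and follistatin and FSTL3 bind these ligands and keep them from their receptors. FSTL1 carries a follistatin-like domain but is not a classical trap for activin, and is known as a secreted product of mesenchymal cells.

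The ligand genes had time courses that diverged from each other, so the 250 bases before each of their annotated starts are shown, from RefSeq on build GRCm38.p6 (mm10). Capitals mark matches to the E-box CANNTG, the core site of myogenic bHLH factors, on either strand (the motif is its own reverse complement). The Mstn window lies on the plus strand at chr1:53061390-53061639, the Inhba window on the plus strand at chr13:16011601-16011850, and the Inhbb window on the minus strand at chr1:119422249-119422498, each printed 5′ to 3′ along its gene. The Mstn and Inhbb windows end at the outer limit of the genes (chr1:53061640-53068079 and chr1:119415463-119422248), and the Inhba window precedes a start that lies inside the annotated span of the gene (chr13:16004256-16031609).
Mstn: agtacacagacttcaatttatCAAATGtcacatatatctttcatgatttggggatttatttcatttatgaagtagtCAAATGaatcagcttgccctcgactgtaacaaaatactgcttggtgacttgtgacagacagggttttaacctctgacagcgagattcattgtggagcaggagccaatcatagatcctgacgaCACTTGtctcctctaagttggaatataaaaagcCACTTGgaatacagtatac
Inhba: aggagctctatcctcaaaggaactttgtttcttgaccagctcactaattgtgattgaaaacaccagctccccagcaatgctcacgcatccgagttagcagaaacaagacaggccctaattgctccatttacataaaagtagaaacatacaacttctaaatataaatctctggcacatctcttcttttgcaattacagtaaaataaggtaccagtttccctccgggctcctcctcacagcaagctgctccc
Inhbb: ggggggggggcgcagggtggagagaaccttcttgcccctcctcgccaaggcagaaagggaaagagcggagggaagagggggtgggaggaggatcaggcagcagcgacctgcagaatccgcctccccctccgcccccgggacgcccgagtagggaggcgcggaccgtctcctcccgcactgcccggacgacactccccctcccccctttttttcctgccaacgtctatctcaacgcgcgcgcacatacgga
The Mstn window held 4 E-box matches, and the Inhba and Inhbb windows held 0, against 66.2% of 32851 RefSeq promoter windows of the same length with at least 1. Mstn also held 1 match to TGANTCA, a loose form of the AP-1 motif that allows any central base (A in this window). The match overlapped the second E-box, and 6.75% of windows hold this loose form. The TATA motif TATAAA, searched on both strands, was matched once in Mstn and once in Inhba, but not in Inhbb, and 12.4% of windows held it. The windows also differed in base composition, with 38.4% G and C for Mstn, 43.2% for Inhba and 68.0% for Inhbb, around a median of 52.4%. The matches describe letters and not bound sites. No window was found in the table for Fst.

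The sections held 2107 to 3032 capture spots and 16777832 to 56113066 UMIs (unique molecular identifiers, each standing for 1 captured molecule). The day 1 section was the shallowest, with a median of 6322 UMIs per spot against 12120 to 21029 in the other sections, and several of its results rest on few UMIs. A spot covers several cells. Sections shared spot barcodes (1341 occurred in all 4) because a barcode names an array position, not a cell. The muscle label was borne out by the adult myofibre list (11 genes of fast contractile fibres such as Acta1, Ckm and Myh4), all of them detected in every section, which took 24.3% of UMIs on day 0, 13.2% on day 1, 8.04% on day 3 and 14.2% on day 7.

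Levels are given as CPM (UMIs of the gene per 1000000 UMIs of the section), and the first comparison was of each injured day with day 0. A gene was called higher or lower where its CPM differed at least 2-fold, the exact conditional binomial interval of the ratio excluded 1, and both sections together held at least 10 UMIs. All 9 genes passed that minimum in each comparison. On day 1, 2 of 9 genes were called higher (Inhbb and Fstl3) and 2 lower (Mstn and Fstl1), where 16.5% and 10.4% of all features tested were called in those directions. On day 3, 1 gene was called higher (Inhbb) against 31.7% of features, and 1 lower (Mstn) against 7.49%. On day 7, 5 genes were called higher (Inhba, Inhbb, Fstl1, Fstl3 and Acvr2b) against 30.7% of features, and 0 were called lower against 1.75%.

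The background had itself moved. The median log2 ratio over all features tested was 0.15 on day 1, 0.58 on day 3 and 0.65 on day 7, and over the 9 genes it was −0.47, 0.15 and 1.01. Scaling with edgeR's TMM factors lowers every log2 ratio to day 0 by 0.21 on day 1, 0.55 on day 3 and 0.61 on day 7. On that scale 1 gene stayed called higher on day 1 (Inhbb) and 2 on day 7 (Inhba and Inhbb), so the day 7 calls of Fstl1, Fstl3 and Acvr2b depend on the scale. The share of all features called was computed in CPM only. Counts of calls on other scales, here and below, therefore have no background share beside them.

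**Figure D1:**
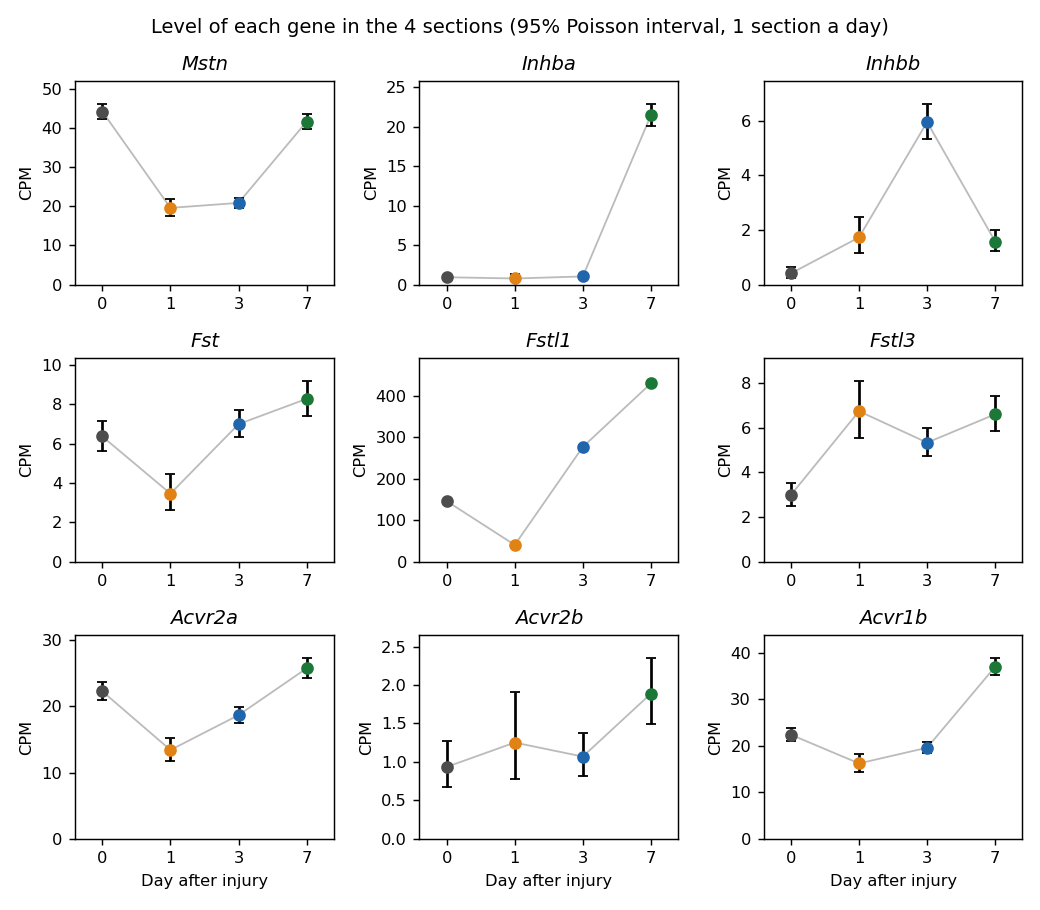
Level of each of the 9 genes in CPM (vertical axes, each from 0 and on its own scale) in the sections of days 0, 1, 3 and 7 (evenly spaced categories), with 95% Poisson intervals and 1 section per day. Mstn was lower at days 1 and 3 than at days 0 and 7, Inhbb was highest on day 3 (5.95 CPM), and Inhba stood out on day 7 (21.5 CPM).

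Mstn, the gene of myostatin, was at 44.2 CPM on day 0, 19.6 on day 1, 20.9 on day 3 and 41.7 on day 7, from 1941, 329, 1172 and 1743 UMIs. Its level on day 1 was 0.443 of that on day 0 (0.393 to 0.498), and on day 3 it was 0.472 (0.439 to 0.508). On day 7 the ratio to day 0 was 0.942 (0.882 to 1.01), and after the TMM shift the day 7 log2 ratio was −0.69. The 2 early sections were thus low and close to each other, and day 7 was back near the uninjured level in CPM. In a section of mixed cells, fewer cells of a type and less RNA per cell cannot be told apart.

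The adult myofibre list was also below day 0 on days 1 and 3, so Mstn was counted against it as well. Unlike Mstn in CPM, the list fell further from day 1 to day 3 (13.2% to 8.04% of UMIs). On day 7 it was still well below day 0 (14.2% against 24.3%). Scaled as CPM of that list alone, Mstn was at 182 on day 0 (174 to 190), 148 on day 1 (133 to 165), 260 on day 3 (245 to 275) and 292 on day 7 (279 to 306). On this scale day 1 was the lowest and days 3 and 7 lay above day 0, so the direction on day 3 was opposite to that in CPM. The list and Mstn are measured in the same spots, and the part that the list's fall had in the CPM of Mstn was not tested.

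Inhba, which encodes the subunit of activin A, was at 0.935 CPM on day 0, 0.775 on day 1 and 1.03 on day 3, from 41, 13 and 58 UMIs, and reached 21.5 CPM (899 UMIs) on day 7. The day 7 level was 23.0 times that on day 0 (16.8 to 32.3) and 20.8 times that on day 3 (15.9 to 27.6). The first 3 sections could not be separated by counting error, since the ratios to day 0 were 0.829 (0.408 to 1.58) on day 1 and 1.11 (0.729 to 1.69) on day 3. Without thinning, 518 of 3032 spots (17.1%) held an Inhba UMI on day 7 against 36 of 2107 (1.71%) on day 0. With every spot thinned to 2000 UMIs these shares were 3.79% (3.14 to 4.55) and 0.172% (0.0522 to 0.489).

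Inhbb, which encodes the subunit of activin B, peaked earlier. Its level was 0.410 CPM on day 0, 1.73 on day 1, 5.95 on day 3 and 1.58 on day 7, from 18, 29, 334 and 66 UMIs. The day 3 level was 14.5 times that on day 0 (9.04 to 24.8) and the day 1 level 4.21 times (2.26 to 8.06). From day 3 to day 7 the ratio was 0.265 (0.20 to 0.346), while that of Inhba was 20.8, so the genes of both activin subunits moved in opposite directions between these sections. Day 7 still lay above day 0 by 3.85 times (2.26 to 6.88). The share of spots with an Inhbb UMI, thinned to 2000 UMIs, was 0.0789% on day 0, 0.457% on day 1, 1.22% on day 3 and 0.322% on day 7, and without thinning 0.759%, 1.09%, 9.34% and 1.95%.

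Between consecutive injured days, 3 of 9 genes (Inhbb, Fst and Fstl1) were called higher and 0 lower on day 3 against day 1, where 17.2% and 2.44% of features were called. Fst was at 2.02 (1.53 to 2.71) there and was not called under any of the other scalings (log2 0.67 after the TMM shift). On day 7 against day 3, 1 gene (Inhba) was called higher and 1 (Inhbb) lower, against 14.7% and 10.7% of features. Mstn lay just under the 2-fold limit there, at 1.99 (1.85 to 2.15), and was called higher with the total that leaves out mitochondrial, haemoglobin and myofibre genes.

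Among the binding proteins, Fst, the gene of follistatin, was at 6.36 CPM on day 0, 3.46 on day 1, 6.99 on day 3 and 8.27 on day 7, from 279, 58, 392 and 346 UMIs. In CPM no section was called different from day 0 for this gene. Its ratio was lowest on day 1, 0.544 (0.402 to 0.724), and the gene was called lower there on the TMM scale (log2 −1.09), with DESeq2 size factors and with mitochondrial, haemoglobin and myofibre genes out of the total. Its ratios of 1.10 on day 3 and 1.30 on day 7 were below 1 after the TMM shift, with log2 values of −0.41 and −0.23. Fstl3, the other trap for activins and myostatin, was at 2.99 CPM on day 0, 6.74 on day 1, 5.33 on day 3 and 6.60 on day 7 (131, 113, 299 and 276 UMIs). Its ratio to day 0 was 2.26 (1.74 to 2.92) on day 1 and 2.21 (1.79 to 2.74) on day 7, both past the 2-fold limit in CPM but not after the TMM shift, where the log2 ratios were 0.97 and 0.54.

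Fstl1 was at 146 CPM on day 0, 40.5 on day 1, 277 on day 3 and 430 on day 7, from 6418, 679, 15540 and 18001 UMIs. The day 1 level was 0.277 of that on day 0 (0.255 to 0.299), the day 3 level 1.89 times (1.84 to 1.95) and the day 7 level 2.94 times (2.86 to 3.03). The gene was thus low in the day 1 section and 6.84 times higher on day 3 than on day 1. The fibroblast list (8 genes, among them Pdgfra, Prrx1, Col1a1 and Dcn), all of whose genes were detected in every section, was likewise low on day 1 and highest on day 7, but unlike Fstl1 it was below day 0 on day 3, at 7466 CPM on day 0, 953 on day 1, 6009 on day 3 and 24710 on day 7, and its part in the course of Fstl1 was not tested.

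The ratio of ligand to binding protein transcripts moved with these courses. Inhba had 0.147 UMIs per Fst UMI on day 0 (0.103 to 0.204), 0.224 on day 1 (0.113 to 0.414), 0.148 on day 3 (0.110 to 0.195) and 2.60 on day 7 (2.29 to 2.95). Against Fstl3 it had 0.313 on day 0, 0.115 on day 1, 0.194 on day 3 and 3.26 on day 7 (2.84 to 3.74). The balance of Inhba to both traps was thus highest on day 7, by intervals that did not overlap those of the other days. Inhbb had 0.0645 UMIs per Fst UMI on day 0, 0.50 on day 1, 0.852 on day 3 and 0.191 on day 7, highest on day 3. Mstn had 6.96, 5.67, 2.99 and 5.04 per Fst UMI, lowest on day 3. These are ratios of transcripts captured in a section and carry no information on protein.

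Of the receptor genes, Acvr2b alone was called against day 0, and on day 7 only. Acvr2a was at 22.3 CPM on day 0, 13.4 on day 1, 18.7 on day 3 and 25.7 on day 7, with ratios to day 0 of 0.602 (0.519 to 0.697), 0.839 (0.768 to 0.916) and 1.16 (1.06 to 1.26). Acvr1b, the gene of ALK4, was at 22.4, 16.2, 19.6 and 37.0 CPM on the same days, with a ratio of 1.65 (1.53 to 1.79) on day 7. Neither gene was called in a comparison with day 0, and the day 7 direction of Acvr2a turned after the TMM shift (log2 −0.40). Acvr2b was at 0.935 CPM on day 0, 1.25 on day 1, 1.07 on day 3 and 1.89 on day 7, from 41, 21, 60 and 79 UMIs. Its day 7 ratio of 2.02 (1.37 to 3.02) sat just inside the 2-fold limit, and on the TMM scale (log2 0.41) it was not called.

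**Figure D2:**
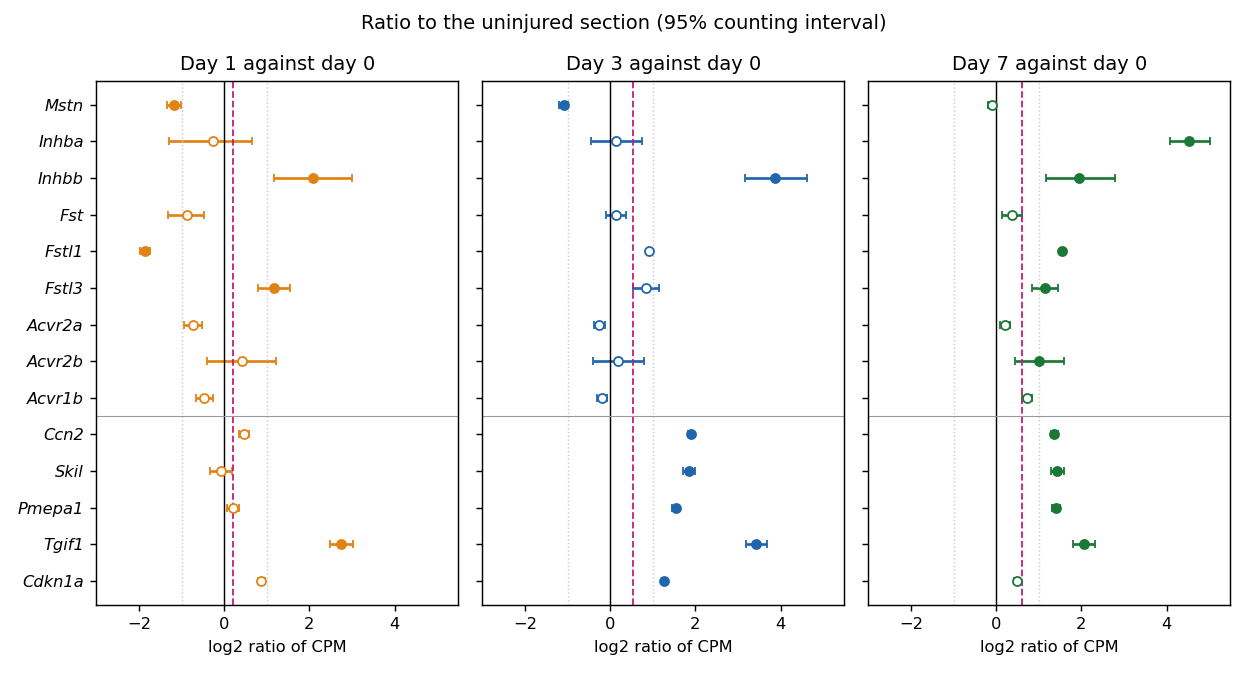
Log2 ratio of CPM to day 0 (horizontal axes) for the 9 genes and, under the grey line, 5 SMAD2/3 responsive genes, with 95% counting intervals. Filled points were called, the dotted lines mark a 2-fold ratio, and the dashed line marks where a gene would lie that moved only by the TMM shift (0.21, 0.55 and 0.61), with Inhbb on day 3 and Inhba on day 7 far to its right.

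The rest of the pathway was read from a list of 37 other genes grouped by role. On day 1, 29 of them could be tested, with 2 called higher and 5 lower, on day 3, 30 with 12 higher and 4 lower, and on day 7, 29 with 15 higher and 0 lower. These counts read against the same background shares as above (16.5%, 31.7% and 30.7% of features called higher). On the TMM scale the calls were 2 higher and 6 lower on day 1, 6 higher and 7 lower on day 3, and 5 higher and 2 lower on day 7, so most of the day 7 calls depend on the scale. Among 5 genes known to respond to SMAD2/3 signalling, 1 was called higher on day 1, 5 on day 3 and 4 on day 7, and 0 were called lower on any day. On the TMM scale these were 1 (Tgif1), 3 (Ccn2, Skil and Tgif1) and 1 (Tgif1). Ccn2, a matricellular growth factor gene, was at 39.7 CPM on day 0, 55.1 on day 1, 148 on day 3 and 102 on day 7. Tgif1, a corepressor gene, was at 3.51, 23.5, 37.8 and 14.6 CPM, and Skil, a feedback inhibitor of SMADs, at 10.7, 10.1, 38.6 and 29.1. All 3 were highest on day 3, the day of the Inhbb peak, and before the Inhba rise. TGF-β itself and other inputs also act on these genes, and the part of any single ligand was not tested.

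Among the other ligand genes, Gdf11, the closest relative of Mstn, was at 4.79 CPM on day 0, 4.05 on day 1, 5.74 on day 3 and 16.2 on day 7. Inha, whose product pairs with the activin subunits to form inhibins, was at 9.73, 2.32, 2.98 and 8.22 CPM, a course with low values at days 1 and 3 like that of Mstn. Gdf3, a ligand gene best known from early embryos, had 0 UMIs on day 0, 44 on day 1, 470 on day 3 and 42 on day 7. Its day 3 level was 122 times that of a floor of 3 UMIs in the day 0 section, and the lower bound of its ratio to day 0 was 99.2. Inhbc, Inhbe, Gdf1, Fstl5 and Foxh1 had 0 UMIs in all 4 sections.

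Of 5 genes tested for enzymes that process the ligands, 3 were called lower on day 1 (10.4% of features), 2 higher and 1 lower on day 3 (31.7% and 7.49%) and 4 higher on day 7 (30.7%). On the TMM scale there were 3 lower on day 1, 0 higher and 2 lower on day 3, and 1 higher on day 7, which was Bmp1. Bmp1, whose product cleaves the propeptide that holds myostatin latent, was at 53.6 CPM on day 0, 24.2 on day 1, 84.3 on day 3 and 242 on day 7. Furin, a proprotein convertase gene, was at 34.7, 48.8, 77.5 and 81.5 CPM, and Pcsk6, another convertase gene, at 38.5, 5.78, 18.0 and 47.1. Bambi, a pseudoreceptor that dampens TGF-β family signals, was at 4.22, 3.46, 4.62 and 17.8 CPM. Smad7, the inhibitory SMAD, was at 5.56, 6.62, 15.8 and 12.9 CPM.

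The second question was where in each section these genes were found. Spots were ranked by the share of their UMIs that came from a marker list, and a gene's CPM in the richest 10% of spots was set over its CPM in all other spots. The richest spots of different lists overlap, and spots of 1 section are not replicates, so these ratios describe each section.

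Mstn followed adult myofibre transcripts after injury. In the richest 10% for that list it was at 42.6 CPM on day 0, 40.5 on day 1, 89.0 on day 3 and 83.3 on day 7, against 44.4, 16.5, 17.1 and 37.8 in the other spots. The ratios were 0.960 (0.819 to 1.12) on day 0, 2.46 (1.91 to 3.15) on day 1, 5.19 (4.51 to 5.96) on day 3 and 2.21 (1.94 to 2.50) on day 7. Mstn was the 1 gene of the 9 called higher in these spots on each injured day, where 0.719% of features were called higher on day 1, 3.19% on day 3 and 0.461% on day 7. The genes called lower there were Fst and Fstl1 on day 1 (2 of 9, against 22.8% of features), with Fstl3 also on day 3 (3 of 9, against 28.9%) and with Inhba and Inhbb also on day 7 (5 of 9, against 21.6%). Since the list itself takes a large share of UMIs in these spots, the CPM of other genes is lowered there by construction. With myofibre, mitochondrial and haemoglobin genes left out of the total, the Mstn ratios were 3.71 on day 1, 6.65 on day 3 and 3.26 on day 7. That total also ranked the spots anew, and it raises the rates of other genes in myofibre-rich spots by construction.

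Across 10 bins of spots ordered by the adult myofibre list, Mstn went from 0.837 CPM in the poorest bin to 89.0 in the richest on day 3, and from 1.28 to 40.5 on day 1. On day 7 it went from 6.75 to 83.2 CPM. On day 0 it went from 21.2 CPM in the poorest bin to 60.8 in the seventh and was lower again, at 42.6, in the richest. The uninjured section therefore held Mstn in all 10 bins, while the poorest bins of days 1 and 3 were at or under 1.28 CPM. The richest bin on day 3 was above every bin of day 0.

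Mstn ratios were under 1 in spots rich in other muscle classes after injury. In the richest 10% for the slow myofibre list (Myh7, Tnnt1 and others) its ratio was 0.556 (0.461 to 0.665) on day 0, 0.678 (0.4496 to 0.989) on day 1, 0.288 (0.213 to 0.382) on day 3 and 0.399 (0.318 to 0.495) on day 7. In spots rich in the regenerating muscle list (embryonic and neonatal myosins Myh3 and Myh8, Myog and others) it was 0.524 (0.311 to 0.833) on day 1, 0.162 (0.113 to 0.227) on day 3 and 0.402 (0.336 to 0.477) on day 7. Of the 9 genes, Mstn alone was called lower in the latter spots on day 3 (2.45% of features) and with Inhba on day 7 (2 of 9, against 3.42%). Spots rich in monocyte/macrophage transcripts (Cd68, Adgre1, C1qa and others) held 2.30 CPM of Mstn on day 3 against 24.3 elsewhere, a ratio of 0.0945 (0.0575 to 0.147). In those spots 0 of 9 genes were called higher on day 3 (13.6% of features) and 2 lower, Mstn and Acvr2b (6.99%). On day 7, 2 were called higher there, Inhbb and Fst (10.1%), and 2 lower, Mstn and Inhba (1.47%).

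Inhba on day 7 was concentrated where cartilage and fibroblast transcripts were. In the 10% of spots richest in the chondrogenic list (Col2a1, Acan, Sox9 and others) it was at 117 CPM against 10.8 elsewhere, a ratio of 10.9 (9.50 to 12.4), and these spots held 492 of its 899 UMIs (54.7%). In the 10% of spots richest in the fibroblast list it was at 108 CPM against 11.04, a ratio of 9.81 (8.59 to 11.2), and for the osteogenic list (Ibsp, Sp7, Runx2 and others) at 126 against 11.4, a ratio of 11.1 (9.72 to 12.7). These are largely the same spots, since 238 of 303 chondrogenic-rich spots (78.5%) were also fibroblast-rich. With myofibre, mitochondrial and haemoglobin genes out of the total, the Inhba ratio was 8.61 for the chondrogenic list and 7.39 for the fibroblast list. Both lay under the intervals of the ratios in CPM. Spots in both classes held 141 CPM (127 to 155), the 65 that were chondrogenic-rich only 59.3 (46.3 to 74.8), the 65 that were fibroblast-rich only 43.9 (34.0 to 55.9), and the 2664 in neither 9.44 (8.46 to 10.5). Either class alone thus held less Inhba than their overlap, and the spots in neither still held more than the whole section of day 0.

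The chondrogenic list was also highest on day 7, but unlike Inhba it was already above day 0 on days 1 and 3. Its summed level was 10.1 CPM on day 0, 40.6 on day 1, 54.7 on day 3 and 1984 on day 7. Of its 10 genes, 9 were detected on day 0 (Snorc at 0), 8 at days 1 and 3 (Snorc and Cnmd at 0) and 10 on day 7. Whether this accounts for the Inhba level was not tested. By bins of the chondrogenic list on day 7, Inhba stayed between 3.27 and 5.40 CPM in the 5 poorest bins, then reached 8.73, 14.8, 20.3, 30.4 and 117 CPM.

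**Figure D3:**
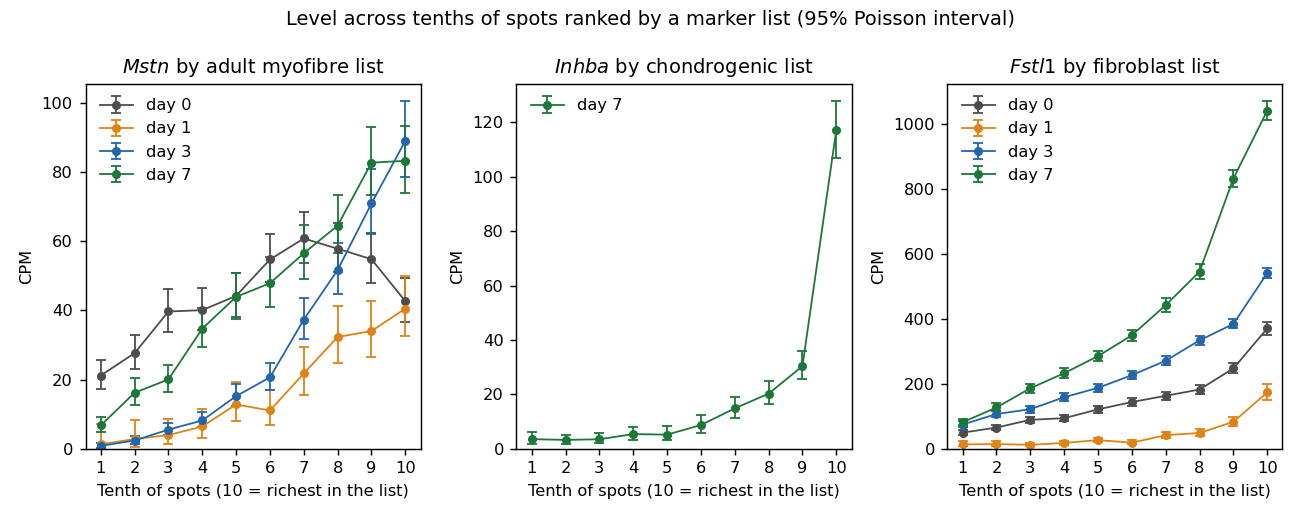
Level in CPM (vertical axes) across 10 bins of spots ranked by a marker list (horizontal axes, 10 is the richest bin), with 95% Poisson intervals, for Mstn by the adult myofibre list and Fstl1 by the fibroblast list on all days, and for Inhba by the chondrogenic list on day 7. Mstn was highest in the richest bin after injury (0.837 to 89.0 CPM on day 3) but was highest in the seventh bin on day 0, and Inhba was highest in the richest bin (117 CPM).

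Other genes of the axis shared these day 7 regions. In chondrogenic-rich spots 3 of 9 genes were called higher, Inhba, Fst and Fstl3, against 19.2% of features, and 1 lower, Mstn, against 5.85%. Fst was at 17.7 CPM there against 7.23 elsewhere (ratio 2.44, 1.86 to 3.17, and 1.85 with myofibre, mitochondrial and haemoglobin genes out of the total), and Fstl3 at 18.4 against 5.29 (3.47, 2.63 to 4.54). In CPM the Inhba ratio there (10.9, and 8.61 with the other total) was above those of both traps, by intervals that did not overlap. In fibroblast-rich spots on day 7, 4 of 9 genes were called higher, Inhba, Fst, Fstl1 and Fstl3, against 24.6% of features, and 1 lower, Mstn, against 7.08%. Spots with a UMI of both Inhba and Fstl3 numbered 103 of 3032 on day 7, where the product of the separate shares gives 39.8, and spots with both Inhba and Fst numbered 88, where it gives 46.0. After thinning to 2000 UMIs these were means of 2.95 and 3.25 spots, too few to read. The counts without thinning pool spots of unequal depth, which was not allowed for. In those counts, spots with Inhba and a receptor gene were at 1.02 times the product for Acvr2a (143 spots), 1.14 for Acvr1b (216 spots) and 0.561 for Acvr2b. The last rests on 7 spots, where the product gives 12.5.

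Before day 7 Inhba had 13 to 58 UMIs per section, and it was called higher in smooth muscle-rich spots on days 0 and 3. In the 10% of spots richest in the smooth muscle list (Acta2, Myh11 and others) it was at 3.91 CPM on day 0 against 0.607 in the other spots, from 17 and 24 UMIs, a ratio of 6.44 (3.25 to 12.5). On day 3 it was at 3.02 CPM there against 0.783, from 19 and 39 UMIs, a ratio of 3.85 (2.10 to 6.83). On day 7 the ratio in smooth muscle-rich spots was 2.23 (1.88 to 2.64), and 1.44 with myofibre, mitochondrial and haemoglobin genes out of the total. In smooth muscle-rich spots 3 of 9 genes were called higher on day 0 (Inhba, Fst and Fstl3, against 9.12% of features), 2 on day 3 (Inhba and Fstl3, against 3.36%) and 4 on day 7 (Inhba, Inhbb, Fstl1 and Fstl3, against 10.9%). The list includes Acta2 and Tagln, which activated fibroblasts also express. In fibroblast-rich spots the Inhba ratio was 2.57 on day 0 (8 UMIs in those spots, and 1.35 with the other total), 5.77 on day 1 (4 UMIs) and 3.77 on day 3 (23 UMIs).

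Inhbb was called higher in adipocyte-rich and endothelial-rich spots on each injured day. It was also called higher in fibroblast-rich spots on day 1 (12.9% of features). On day 7 the same held in smooth muscle-rich (10.9%) and monocyte/macrophage-rich spots (10.1%). In spots richest in the adipocyte list (Adipoq, Plin1 and others) it was at 12.2 CPM on day 1 against 1.13 elsewhere (11 and 18 UMIs), a ratio of 10.7 (4.59 to 24.0), with median depths of 2413 and 6737 UMIs per spot. On day 3 it was at 14.6 against 5.26 CPM (61 and 273 UMIs), a ratio of 2.77 (2.07 to 3.67), and on day 7 at 4.77 against 1.34 (14 and 52 UMIs), a ratio of 3.57 (1.83 to 6.53). Of the 9 genes, 2 were called higher in adipocyte-rich spots on day 1, Inhbb and Fstl1, against 26.5% of features. At days 3 and 7 Inhbb alone was called higher there, against 3.03% and 6.95% of features. Its ratio in endothelial-rich spots (Pecam1, Cdh5 and others) was 6.75 (2.71 to 15.5) on day 1, 2.45 (1.83 to 3.24) on day 3 and 3.68 (2.02 to 6.45) on day 7. The day 1 ratio rests on 29 Inhbb UMIs in the whole section, with median depths of 2615 UMIs per endothelial-rich spot and 6660 elsewhere. In these spots 2 of 9 genes were called higher on day 1 (Inhbb and Fstl1, against 14.7% of features), 2 on day 3 (Inhbb and Fstl3, against 3.04%) and 1 on day 7 (Inhbb, against 7.58%).

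On day 3, the day of the Inhbb peak, 114 spots were both adipocyte-rich and endothelial-rich and held 22.3 CPM of Inhbb (15.9 to 30.5). Adipocyte-rich spots outside the overlap held 9.03 CPM (5.66 to 13.7), endothelial-rich spots outside it 7.60 (4.82 to 11.4), and the 2537 in neither 5.11 (4.50 to 5.79). The spots in neither held 250 of the 334 UMIs, and their level alone was above the whole section of day 0 (0.410 CPM), so the day 3 level was above day 0 also outside these spots, and it was highest in the overlap. In monocyte/macrophage-rich spots of day 3 Inhbb was at 5.85 CPM against 5.97 elsewhere, a ratio of 0.980 (0.713 to 1.32).

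Of the follistatin family genes, Fstl1 was called higher in fibroblast-rich spots of all 4 sections, Fst on days 0, 1 and 7, and Fstl3 on days 0 and 7. The whole day 1 section held 58 Fst UMIs. In fibroblast-rich spots 4 of 9 genes were called higher on day 0 (Inhba, Fst, Fstl1 and Fstl3, against 11.8% of features), 4 on day 1 (Inhba, Inhbb, Fst and Fstl1, against 12.9%) and 2 on day 3 (Inhba and Fstl1, against 6.58%). The Fstl1 ratio there was 2.95 (2.78 to 3.14) on day 0, 5.73 (4.85 to 6.76) on day 1, 2.34 (2.26 to 2.42) on day 3 and 2.93 (2.83 to 3.03) on day 7. Fst was at 21.5 CPM there on day 0 against 4.94 elsewhere, a ratio of 4.34 (3.31 to 5.65), and on day 7 at 20.9 against 6.75, a ratio of 3.10 (2.42 to 3.94). On day 3 the Fst ratio there was 1.84 (1.44 to 2.32), under the 2-fold limit. Fstl3 was called higher in smooth muscle-rich spots of all 4 sections, with ratios of 3.19 (2.09 to 4.76) on day 0, 3.77 (2.32 to 5.94) on day 1, 2.65 (2.01 to 3.45) on day 3 and 3.47 (2.62 to 4.54) on day 7. Of all features, 9.12%, 11.1%, 3.36% and 10.9% were called higher in these spots on the same days. The whole day 1 section held 113 Fstl3 UMIs.

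Across 10 bins of spots ordered by the fibroblast list, Fstl1 was highest in the richest bin in each section, going from 49.7 to 370 CPM on day 0, 13.4 to 173 on day 1, 74.7 to 540 on day 3 and 81.6 to 1040 on day 7. The day 7 section was above day 0 in every bin, also where the list was poorest. Across the 2948 spots of day 7 thinned to 2000 UMIs, the genes whose counts correlated most with Fstl1 were Col1a1 (Spearman rho 0.43), Col1a2 (0.42), Col3a1 (0.42), Sparc (0.38) and Fn1 (0.36), all of them genes of secreted matrix proteins. At days 0 and 3 no gene reached a rho of 0.3. Col3a1 was first on both days, at 0.237 on day 0 and, just under the limit, at 0.2999 on day 3. All these rho values came from a single thinning draw. Fstl1 on day 1, and the other 8 genes on all days, were found in under 20% of thinned spots and were not ranked.

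**Figure D4:**
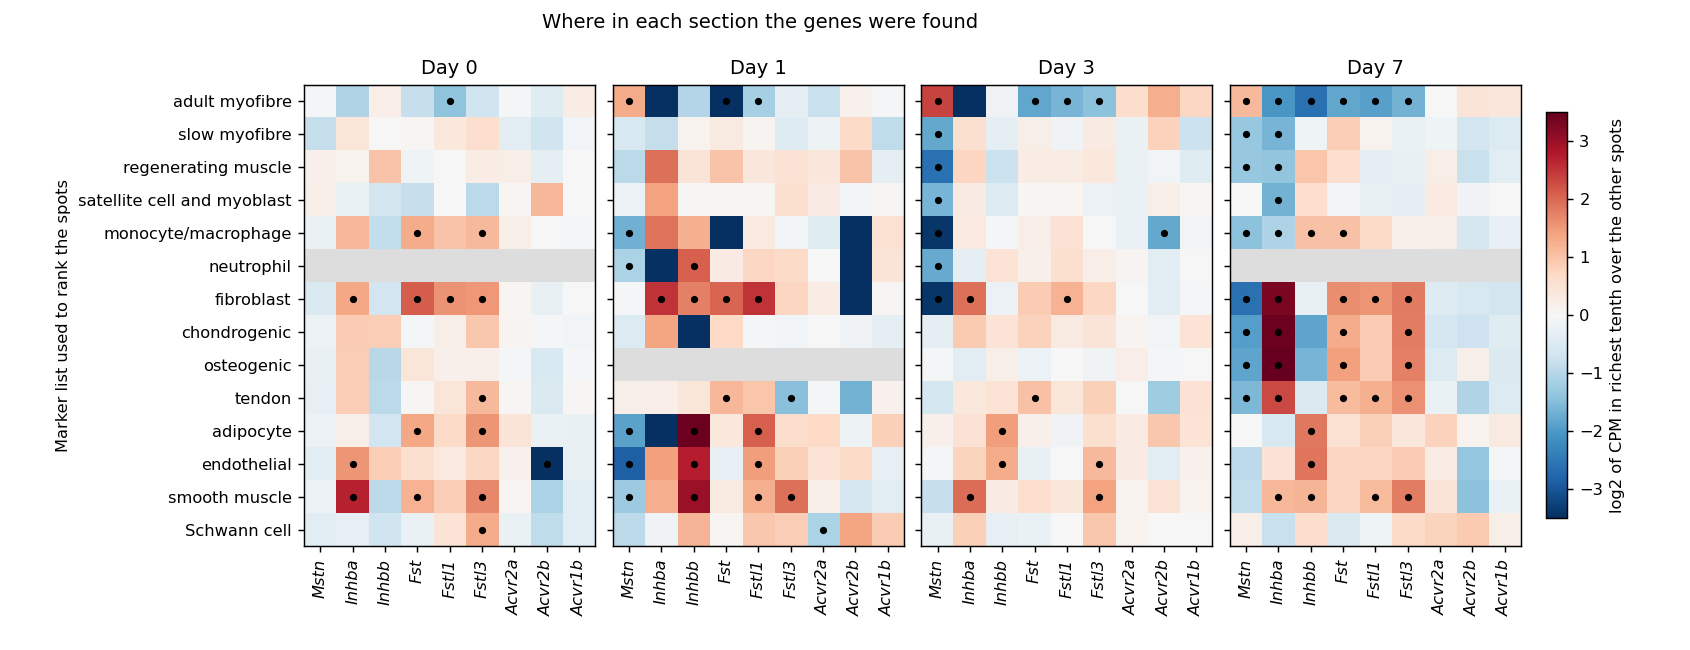
Log2 of CPM in the 10% of spots richest in a marker list (rows) over CPM in all other spots, for the 9 genes (columns) in each of the 4 sections, with the colour scale ending at −3.5 and 3.5 (0 UMIs are drawn at its lower end), dots on called pairs, and grey rows where a list had too few UMIs to rank the spots. On day 7 Inhba was higher in fibroblast-rich, chondrogenic-rich and osteogenic-rich spots (ratios 9.81, 10.9 and 11.1) and Mstn lower, while Acvr2a and Acvr1b stayed pale.

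The receptor genes were also set against the lists. Acvr2a ratios over all usable lists ran from 0.769 to 1.37 on day 0, 0.846 to 1.55 on day 3 and 0.662 to 1.74 on day 7, and on day 1 from 0.460 to 1.62, the lowest being Schwann cell-rich spots with 9 UMIs. Acvr1b ran from 0.754 to 1.205 on day 0, 0.536 to 1.85 on day 1, 0.593 to 1.64 on day 3 and 0.635 to 1.30 on day 7. Neither was called higher in the spots of any usable list. With myofibre, mitochondrial and haemoglobin genes out of the total, Acvr1b passed the 2-fold limit in adult myofibre-rich spots on day 3 (2.16) and was at 0.481 of its level elsewhere in fibroblast-rich spots on day 7. Acvr2b had 21 to 79 UMIs per section, and in endothelial-rich spots of day 0 it had 0.

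Genes with the course most like each of 4 members over the 4 sections were found by the root mean square difference of centred log2 CPM, among 13730 genes with at least 100 UMIs. For Mstn they were Plaat1 (0.02), Gm20300 (0.02) and Gimap6 (0.03), and 329 genes lay within 0.2. For Inhba they were Sdk2 (0.20), Shank1 (0.33) and Nebl (0.35), and 1 gene lay within 0.2. For Fst they were Prss23, BC037704 and Krtcap3 (0.03 to 0.05), and for Fstl1 Loxl2, a lysyl oxidase that crosslinks matrix, with Gpr20 and Aldh1l2 (0.12 to 0.17). With 4 sections per gene, many genes share a course such as that of Mstn.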

How the data were processed

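Visium sections of tibial muscle (1 per day) were analysed from the deposited UMI counts per gene and spot, which the authors made with 10x Genomics software. The file headers name Space Ranger 1.2.0 and the labels and methods name other versions. The build is mm10 per the submitters' processing notes. All 10835 spots were used. Positions, images and single-cell data were not used here.

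Counts were summed per section or per class of spots and scaled to CPM. Levels have exact Poisson intervals, shares Clopper-Pearson intervals and ratios exact conditional binomial intervals at 95%. UMIs remove PCR copies, and intervals cover counting error only. Spots were ranked by 14 marker lists (used where each of the richest spots held a list UMI), without clustering, deconvolution or a doublet caller. Shares used 20 thinning draws to 2000 UMIs, which left out 17, 513, 9 and 84 spots at days 0, 1, 3 and 7. For the Gdf3 fold and for likeness of course, counts under 3 UMIs were entered at a floor of 3 UMIs. The genes, lists and comparisons were chosen with earlier results of these data known. Named genes were the 9 members, pathway genes called against day 0 or described with their group, the 3 closest in course to 4 members, and up to 5 correlated genes with rho of at least 0.3. 1 pathway gene is not reported here and was left out of the counts. Alternatives were edgeR 4.0.16 TMM factors and DESeq2 1.42.0 size factors (scaling only), totals that leave out 3 gene classes (mitochondrial, haemoglobin, myofibre), leaving out spots under 1000 UMIs, a fold of 1.5, no minimum, the richest 20%, and thinning to 1000, 4000 or not at all. For ratios in richest spots, the total without those 3 gene classes was also used to rank the spots. The interval, call and thinning code was tested on simulated data. Python 3.11.15, SciPy 1.17.1 and R 4.3.3 were used.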

Additional observations from a re-analysis of the deposited data

How the results depend on the processing

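No paired analysis was possible because each day had 1 section. No called value changed sign under any of the alternatives listed above. They do not include the count of Mstn per adult myofibre list UMI, where day 3 lay above day 0, opposite to its call in CPM. Under both edgeR TMM factors and DESeq2 size factors the genes called higher fell from 2 to 1 at day 1 and from 5 to 2 at day 7 against day 0. With mitochondrial, haemoglobin and myofibre genes out of the total they were 3 at day 7 against day 0 and 3, up from 1, at day 7 against day 3. With a fold of 1.5 there were 4 genes lower at day 1 and 3 higher at day 3 against day 0, and 5 higher at day 7 against day 3. Pairs of a gene and a marker list called higher in the richest spots went from 14 to 8 at day 0 with the richest 20% of spots and from 23 to 14 at day 7 with the total without those genes. The other counts of calls for the 9 genes stayed within 1.5 times. Counts for the pathway lists, rescaled as an addition after the data were seen, did not all do so: under both TMM and DESeq2 factors the other pathway genes called higher went from 12 to 6 on day 3 and from 15 to 5 on day 7. The share of all features called was not computed under the alternatives, so whether these counts moved more than the background was not tested. Leaving out spots under 1000 UMIs moved 0 of 45 log2 ratios and 1 of 477 ratios in richest spots by more than their interval. Rescaling moved far more of the 45 log2 ratios: 23 with TMM factors, 22 with DESeq2 size factors and 19 with mitochondrial, haemoglobin and myofibre genes out of the total. That total also moved 68 of 477 ratios in richest spots, and the richest 20% of spots moved 53 of 441. Depth limits Inhba, Inhbb and Acvr2b at day 0 and day 1, each with 13 to 41 UMIs in a section.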
